A study of Homo sapiens with 24 samples.

Results

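The genes of DNA replication and of the G1/S transition were followed in HT29 cells exposed to short chain fatty acids, to a propionibacterial culture supernatant and to the death ligand TRAIL. The set comprised 43 genes, listed by symbol, which encode the proteins that load and start the replicative helicase, the polymerases and their accessory factors, the enzymes of deoxynucleotide supply, and regulators of entry into S phase. Every probe carrying one of these symbols was collected, which gave 56 of the 50599 probes of the array. All 56 probes were well above background on all 24 arrays, so that 43 of 43 genes were measured, among 20700 genes tested in all.

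HT29 is an established human colon adenocarcinoma line. Untreated cells (NT) were compared with cells given, for 6 h, C3/C2 (propionate at 30 mM and acetate at 15 mM), SN (the culture supernatant of Propionibacterium freudenreichii, diluted to 1/2, in which both acids are the main metabolites), TRAIL (100 ng/ml with 2 µg/ml of the anti-Flag M2 antibody), TRAIL+C3/C2 or TRAIL+SN. Each of the 6 groups had 4 arrays, numbered as replicates 1 to 4. The study's methods describe independent experiments performed in duplicate, and since nothing states which arrays belong to one experiment, the p-values measure the spread between arrays, part of which may be technical.

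Replication starts in G1, when CDC6 and CDT1 load the ring of MCM2 to MCM7 onto origins. In S phase CDC45 and the GINS complex join that ring and turn it into the active helicase, primase and the polymerases copy both strands, and PCNA, loaded by the RFC complex, holds the polymerases on DNA. Cyclin E, with its kinase CDK2, and the E2F transcription factors drive entry into S phase, and many replication genes are E2F targets. Propionate, like butyrate, is known as an inhibitor of histone deacetylases, and short chain fatty acids slow the growth of colon cancer cells in culture.

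The arrays lay on 4 slides. NT and C3/C2 shared slide 1 (replicate 1 of each) and slide 2 (the other 3 replicates of each), SN and TRAIL filled slide 3, and both co-treatments filled slide 4. C3/C2 was therefore compared with NT within slides, whereas for the other treatments slide and group cannot be told apart in the comparison with NT. SN against TRAIL, and TRAIL+SN against TRAIL+C3/C2, were comparisons within 1 slide. The 75th percentile of the spot intensities ranged from 453 to 1009 among arrays, no member spot was saturated, and log2 levels within a group correlated at 0.993 to 0.998. That percentile was 745 to 1009 in NT, 770 to 899 with C3/C2, 724 to 798 in SN and 631 to 683 with TRAIL. On slide 4, with both co-treatments, it was 453 to 546. All 12 colon epithelium markers were above background on all arrays. Their summed linear level (1 being the 75th percentile of the array) was 1030 to 1150 in NT, 1010 to 1110 with C3/C2 and 1040 to 1170 in SN. It was 1370 to 1510 with TRAIL, 1460 to 1510 in TRAIL+C3/C2 and 1400 to 1450 in TRAIL+SN. Of the markers of other cells, 2 of 8 fibroblast, 5 of 7 leukocyte and 4 of 5 endothelium genes passed the filter. Their summed linear level (1 being the 75th percentile of the array) was, for fibroblast genes, 0.124 to 0.183 in NT, 0.624 to 0.674 with C3/C2, 0.836 to 1.02 in SN, 0.1 to 0.159 with TRAIL, 0.514 to 0.69 in TRAIL+C3/C2 and 0.817 to 1.31 in TRAIL+SN. For leukocyte genes it was 1.82 to 2.42 in NT, 3.42 to 4.29 with C3/C2, 3.94 to 5.34 in SN, 1.73 to 2.49 with TRAIL, 3.54 to 4.6 in TRAIL+C3/C2 and 3.96 to 5.37 in TRAIL+SN. For endothelium genes it was 0.228 to 0.276 in NT, 0.381 to 0.472 with C3/C2, 0.256 to 0.329 in SN, 0.219 to 0.267 with TRAIL, 0.391 to 0.417 in TRAIL+C3/C2 and 0.264 to 0.352 in TRAIL+SN. The sums of the 3 lists of other cells were above every NT array with both treatments holding C3/C2, and those of fibroblast and leukocyte genes with both holding SN. COL1A1 was above background on 0 of 4 NT arrays and on 4 of 4 SN arrays, and the part of these genes in the results was not tested.

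Levels are given as log2 intensity minus the 75th percentile of each array, and a change is the difference between group means on that scale, with its standard error (SE). A gene is said to have risen or fallen where the adjusted p of the limma fit was under 0.05, and is said to be called where the fold change was also 2 or more. In these bulk samples a smaller share of cells in a phase and less RNA per cell cannot be told apart.

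The replication genes fell more often than they rose in every treatment that held acids or supernatant, and most of these changes were smaller than 2-fold. With C3/C2, 10 members rose and 23 fell, against 35.2% and 27.7% of all genes tested. In SN, 10 rose and 25 fell (35.1% and 34.2% of all genes). In TRAIL+C3/C2, 8 rose and 28 fell, where the shares of all genes were 39.9% and 29.5%, and in TRAIL+SN 9 rose and 28 fell, against 37.4% and 32.7%. TRAIL alone moved few of them: 2 rose and 6 fell, beside 20.3% and 13.1% of all genes.

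Few members passed a fold of 2, and their share was near or below that of all genes. C3/C2 had 3 called higher and 2 called lower (13.4% and 6.17% of all genes), SN had 1 and 2 (14.2% and 9.74%), TRAIL had 0 and 0 (0.749% and 2.18%), TRAIL+C3/C2 had 2 and 3 (16.3% and 7.93%), and TRAIL+SN had 2 and 5 (16.1% and 10.1%). Exactly 10 genes were called in at least 1 treatment. GINS3, MCM6, RRM2, POLE2, PRIM1 and RPA2 were called lower, and CCNE1, E2F2, CHAF1A and CDC6 were called higher. The median log2 change of the members was -0.21 with C3/C2, -0.24 in SN, -0.07 with TRAIL, -0.26 in TRAIL+C3/C2 and -0.33 in TRAIL+SN, where the medians over all genes were 0.08, -0.02, 0.03, 0.10 and 0.04. In terms of single arrays, all 4 SN arrays lay below all 4 NT arrays for 24 members and above them for 7, and with TRAIL the arrays overlapped for 33 of 43. Such separation was not counted over all genes, so these counts do not set the members apart.

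**Figure D1:**
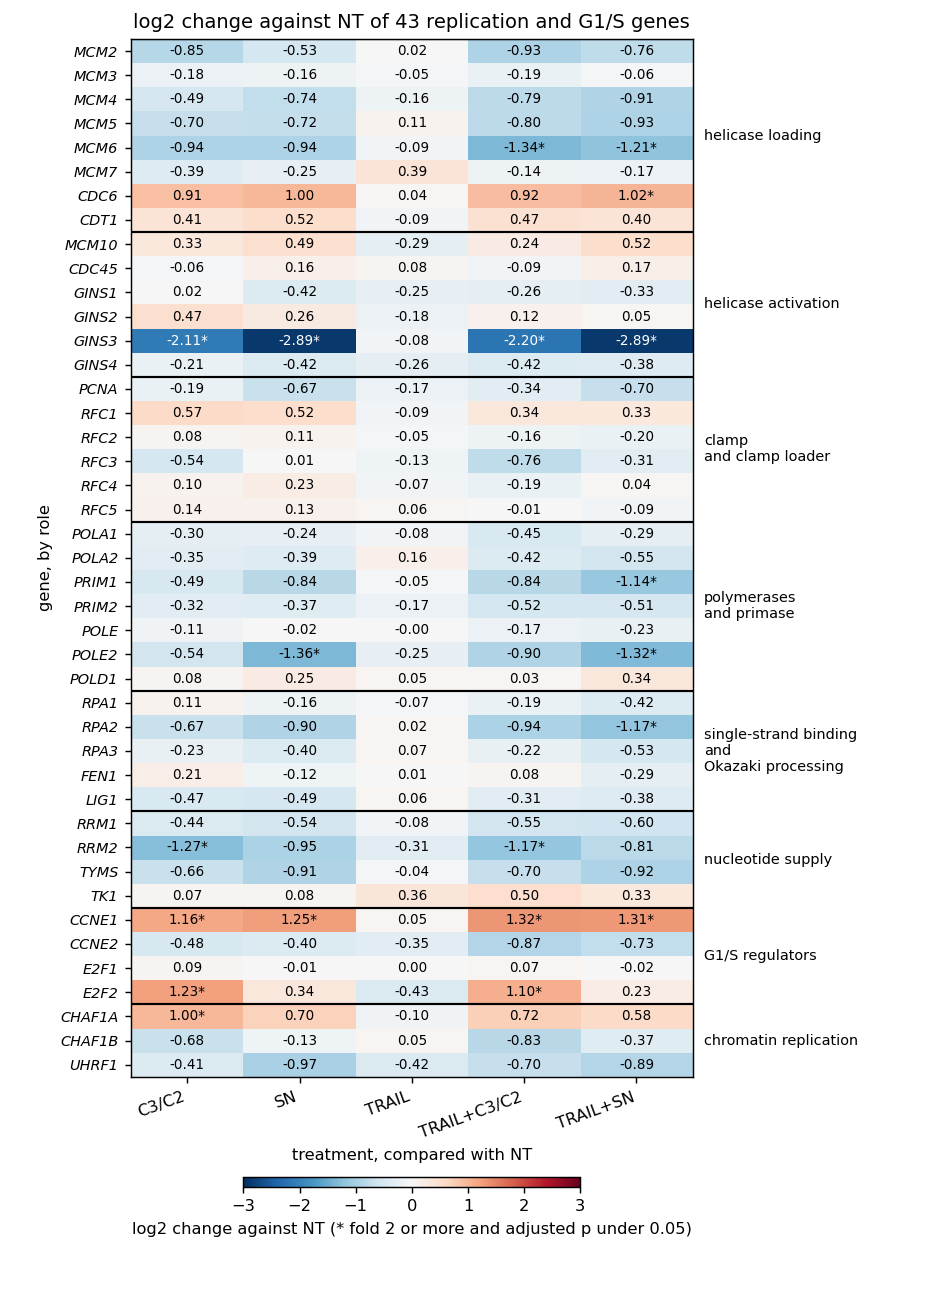
Log2 change against NT of each of the 43 genes (rows, ordered by role) in the 5 treatments (columns), with blue for lower, red for higher and an asterisk for a fold of 2 or more with an adjusted p under 0.05. The TRAIL column is pale and holds no asterisk, while the row of GINS3 is the darkest of the 4 treatments that contain acids or supernatant, at -2.11 to -2.89.

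The split between rises and falls depended on how the arrays were put on one scale. Scaling by the array median moved the median of all genes to -0.22 with C3/C2 and -0.25 in TRAIL+C3/C2, and scaling by the spike-in controls moved it to -0.63 in TRAIL+C3/C2 and -0.43 in TRAIL+SN. Under the median scaling 5 members rose and 32 fell with C3/C2, 6 and 27 in SN, 4 and 34 in TRAIL+C3/C2, and 5 and 31 in TRAIL+SN. Under the spike-in scaling these counts were 7 and 23, 9 and 17, 2 and 38, and 2 and 34. Shares of all genes under other scalings, here and below, were not counted. The counts therefore do not show whether the members stand out. The member median was below that of all genes in these 4 treatments and also with TRAIL. Array median and spike-in scaling shift all genes of an array alike, so they cannot test this gap. Under quantile normalization, which can move it, the members minus all genes were at -0.193, -0.154, -0.325 and -0.327 in that order. After normexp background correction they were at -0.274, -0.28, -0.586 and -0.597. For TRAIL the counts went from 2 and 6 to 2 and 0 (median), 0 and 15 (quantile) and 0 and 12 (spike-in), and none of its 8 changes passed under all 4 other scalings.

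Promoter sequences were read from RefSeq (GRCh38.p14) to show what the members share beyond their symbols. Of the 43 genes, 37 matched, with 48 promoters of 300 bases, each from 250 bases before the start of a transcript to 50 after it. The 8-letter E2F motifs TTTGGCGC, TTTCGCGC, TTTCCCGC and TTTGCCGC, searched on both strands, were present in 43.8% of member promoters, in 4.59% of the promoters of genes tested and in 3.31% of all 35116 promoters. CCAAT was present in 56.2% of member promoters, 34.3% of those of genes tested and 34.6% of all. The GC box GGGCGG was in 75%, 63% and 45.0%, and TATAAA in 6.25%, 7.19% and 11.5%, so that both lay nearer to the genes tested than to all promoters. Of the 20 genes with E2F letters, 3 rose and 13 fell in SN, with a median log2 change of -0.32, and of the 17 without them 7 rose and 6 fell, with a median of 0.11. All 6 members with no promoter in the table also fell (median -0.57), and 35.1% and 34.2% of all genes rose and fell in SN. The medians with and without E2F letters were -0.32 and 0.08 with C3/C2, and -0.08 and -0.05 with TRAIL. They were -0.33 and -0.09 in TRAIL+C3/C2, and -0.32 and -0.09 in TRAIL+SN. Of the 17 genes without the letters, 5 rose and 8 fell in TRAIL+C3/C2, and 7 and 8 in TRAIL+SN. Shares of all genes there were 39.9% and 29.5%, and 37.4% and 32.7%. The difference between these sets was not tested, and the letters are matches only and do not show binding.

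The stretches below come from promoters of genes with unlike values, so that the same letters can be seen next to them. MCM6 fell in every treatment with acids or supernatant, PCNA fell in SN and both co-treatments, and E2F1 did not pass the test. E2F2 rose with C3/C2, SN and TRAIL+C3/C2, and CDT1 with these and TRAIL+SN. RRM2 is shown because it fell and the promoter shown holds 3 CCAAT boxes and no E2F letters in this stretch. PCNA and RRM2 have 2 promoters each, and the PCNA promoter not shown holds no E2F letters. Each is written 5′ to 3′ on the strand of its gene, with capitals for E2F letters on either strand, or for CCAAT in RRM2. In MCM6 each capital run is a pair of overlapping matches, 1 on each strand. The MCM6 stretch is chr2:135876486-135876605 (minus), PCNA chr20:5126623-5126742 (minus), E2F1 chr20:33686386-33686505 (minus), E2F2 chr1:23531234-23531353 (minus), CDT1 chr16:88803669-88803788 (plus) and RRM2 chr2:10122614-10122738 (plus). That of MCM6 ends 43 bases before the transcript start and the other 5 end at the base before it.
MCM6: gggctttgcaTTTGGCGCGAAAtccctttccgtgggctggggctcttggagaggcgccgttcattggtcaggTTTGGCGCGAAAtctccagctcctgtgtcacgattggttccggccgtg
PCNA: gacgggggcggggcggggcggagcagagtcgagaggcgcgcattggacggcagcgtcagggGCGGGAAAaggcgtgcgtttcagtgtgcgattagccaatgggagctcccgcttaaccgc
E2F1: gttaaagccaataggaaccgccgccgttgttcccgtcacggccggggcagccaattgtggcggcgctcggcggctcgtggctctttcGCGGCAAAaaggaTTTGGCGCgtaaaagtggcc
E2F2: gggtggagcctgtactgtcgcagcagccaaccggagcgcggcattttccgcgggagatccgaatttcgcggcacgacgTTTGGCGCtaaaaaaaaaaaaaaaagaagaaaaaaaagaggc
CDT1: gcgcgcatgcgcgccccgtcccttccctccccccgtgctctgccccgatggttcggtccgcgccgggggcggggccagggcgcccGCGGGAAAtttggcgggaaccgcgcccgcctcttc
RRM2: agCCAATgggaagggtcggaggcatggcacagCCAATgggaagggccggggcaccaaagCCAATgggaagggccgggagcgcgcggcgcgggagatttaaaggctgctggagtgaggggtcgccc

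Among the helicase loading genes, the 6 subunits of the MCM ring fell while the loaders CDC6 and CDT1 rose. All of MCM2 to MCM7 fell with C3/C2, SN and TRAIL+C3/C2, and 5 of the 6 fell in TRAIL+SN, where MCM3 was at -0.06 ± 0.06 (SE). Under the 4 other scalings MCM2 to MCM7 stayed below NT in these 4 treatments. The subunits are used in equal numbers in the ring, yet the size of the fall ranged from -0.16 for MCM3 to -0.94 for MCM6 in SN.

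MCM6 had the largest changes of the ring, and its probe lies at chr2:136598217-136598276 (hg19, minus strand). Its level was 3.40, 3.45, 3.65 and 3.69 on the NT arrays, 2.52, 2.47, 2.74 and 2.71 with C3/C2, and 2.58, 2.59, 2.68 and 2.58 in SN. TRAIL arrays overlapped NT at 3.33, 3.36, 3.62 and 3.50, while MCM6 was at 2.15, 2.13, 2.19 and 2.37 in TRAIL+C3/C2 and at 2.14, 2.12, 2.59 and 2.48 in TRAIL+SN. No array with acids or supernatant reached the lowest NT array. The change was -0.94 ± 0.10 with C3/C2 (adjusted p = 6.57e-08) and also -0.94 ± 0.10 in SN, just short of 2-fold, and was called in TRAIL+C3/C2 (-1.34 ± 0.10, adjusted p = 2.1e-10) and TRAIL+SN (-1.21 ± 0.10, adjusted p = 8.83e-10). MCM6 is part of the motor core of the helicase.

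MCM2, the subunit that also binds histones, was at 4.42, 4.39, 4.47 and 4.66 in NT, 3.67, 3.48, 3.70 and 3.71 with C3/C2, and 4.01, 4.10, 3.91 and 3.83 in SN. The C3/C2 arrays of MCM2 all lay below the SN arrays. It fell by 0.85 with C3/C2 and by 0.53 in SN (SE 0.07 for both), and the difference between SN and C3/C2 was 0.32 ± 0.07 (adjusted p = 0.000973). MCM2 was at 4.53, 4.51, 4.57 and 4.42 with TRAIL, within the NT range. In TRAIL+C3/C2 it was at 3.54, 3.48, 3.57 and 3.64, and in TRAIL+SN at 3.67, 3.69, 3.68 and 3.85. The fall in TRAIL+C3/C2 was -0.93 ± 0.07, and under each of the 4 other scalings it passed a fold of 2.

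CDC6, the ATPase that recruits the MCM ring with CDT1, moved the other way. The level of CDC6 was -1.87, -2.13, -2.06 and -2.16 on the NT arrays and -2.0, -2.15, -1.92 and -2.01 with TRAIL. It was -1.33, -1.16, -0.99 and -1.11 with C3/C2, -0.98, -1.04, -1.06 and -1.16 in SN, -1.09, -1.25, -1.12 and -1.07 in TRAIL+C3/C2, and -0.93, -0.92, -1.2 and -1.10 in TRAIL+SN. Each of these 16 arrays was above every NT and TRAIL array. CDC6 rose by 0.91 ± 0.08 with C3/C2, 1.00 ± 0.08 in SN, 0.92 ± 0.08 in TRAIL+C3/C2 and 1.02 ± 0.08 in TRAIL+SN (adjusted p = 3.97e-10). Only the last passed a fold of 2, at 2.03, and it dropped under 2 in 8 of 20 alternative settings. Under spike-in scaling the rise in TRAIL+C3/C2 was 0.20 and did not pass. CDT1 rose by 0.41 ± 0.09, 0.52 ± 0.09, 0.47 ± 0.09 and 0.40 ± 0.09 in the same order, but under spike-in scaling it turned to -0.26 in TRAIL+C3/C2 and -0.06 in TRAIL+SN.

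The other ring subunits lay between these. MCM4 fell by 0.49 with C3/C2, 0.74 in SN, 0.79 in TRAIL+C3/C2 and 0.91 in TRAIL+SN (SE 0.07). MCM5 fell by 0.70, 0.72, 0.80 and 0.93 in that order (SE 0.14), with C3/C2 replicate 2 the lowest of its group at 2.18 against 2.66 to 2.91. MCM3 changed the least of the ring, from 4.88 ± 0.04 (SD, n = 4) in NT to 4.71 ± 0.06 with C3/C2 and 4.72 ± 0.04 in SN. MCM7 was alone in the ring in rising with TRAIL, from 7.08 to 7.18 on the NT arrays to 7.46 to 7.56 (0.39 ± 0.06, adjusted p = 5.19e-05), a rise that did not pass under every other scaling. It also rests on 1 probe, since the other MCM7 probe was at 0.03 with TRAIL (adjusted p = 0.854) and fell more in the treatments with acids or supernatant, by 0.75, 0.66, 0.50 and 0.87 where the representative probe fell by 0.39, 0.25, 0.14 and 0.17.

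GINS3 had the largest change of any member, and the other subunits of its complex changed less or, for GINS2, the other way. GINS1 to GINS4 form a ring-shaped tetramer in equal amounts, which binds CDC45 and the MCM ring at the fork. The GINS3 probe lies at chr16:58439799-58439858 (hg19, plus strand). Its level was 2.02, 1.98, 2.08 and 1.93 in NT and 1.93, 2.06, 1.84 and 1.84 with TRAIL. With C3/C2 it was -0.22, -0.26, 0.07 and -0.03, and in SN -0.82, -0.97, -0.83 and -0.96. The SN arrays of GINS3 were all below the C3/C2 arrays, and both groups were far below NT. With TRAIL added, GINS3 was at -0.15, -0.22, -0.19 and -0.22 in TRAIL+C3/C2 and -0.84, -1.04, -0.71 and -0.98 in TRAIL+SN. GINS3 was lower than in NT by 4.32-fold with C3/C2 (adjusted p = 2.09e-15), 7.43-fold in SN (adjusted p = 1.18e-17), 4.58-fold in TRAIL+C3/C2 and 7.43-fold in TRAIL+SN, each with an SE of 0.08 on the log2 scale. Only 121 of the 20700 genes had a lower log2 change than GINS3 with C3/C2, and only 95 in SN. It was called under all 4 other scalings in all 4 of these treatments.

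GINS1 was at 2.88 ± 0.11 (SD, n = 4) in NT and 2.90 ± 0.11 with C3/C2, and fell by 0.42 ± 0.12 (SE) in SN, where its arrays spread from 2.02 to 2.71. In TRAIL+SN GINS1 fell by 0.33. GINS4 fell by 0.21 ± 0.07 with C3/C2 and by 0.42 ± 0.07 in SN, and by 0.42 and 0.38 in TRAIL+C3/C2 and TRAIL+SN. GINS2 was higher instead, at 2.61, 2.50, 2.97 and 2.85 in NT and 2.97, 2.99, 3.47 and 3.40 with C3/C2, a rise of 0.47 ± 0.13 (adjusted p = 0.00247) that was lost under some scalings. In GINS2 the arrays of replicates 3 and 4 were above those of replicates 1 and 2 in both groups. GINS2 was at 2.96, 2.92, 3.11 and 2.98 with SN and 2.41, 2.46, 2.80 and 2.57 with TRAIL, and the changes of 0.26 ± 0.13 and -0.18 ± 0.13 did not pass. It was at 2.78, 2.63, 3.00 and 3.01 in TRAIL+C3/C2 and 2.65, 2.72, 2.83 and 2.93 in TRAIL+SN, all within or near the NT range.

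MCM10, a scaffold of the fork that binds the helicase and primase, rose. It was at -0.88, -0.83, -0.83 and -0.71 in NT, -0.41, -0.52, -0.51 and -0.50 with C3/C2 and -0.24, -0.16, -0.47 and -0.41 in SN. The arrays of MCM10 did not overlap between NT and either treatment, and the rises were 0.33 ± 0.09 and 0.49 ± 0.09. TRAIL alone lowered it, to -1.03, -1.23, -1.0 and -1.13 (-0.29 ± 0.09, adjusted p = 0.0201). In TRAIL+C3/C2 it was at -0.48, -0.46, -0.78 and -0.56, which overlapped NT and whose rise of 0.24 ± 0.09 turned to -0.48 under spike-in scaling. In TRAIL+SN it was at -0.27, -0.04, -0.37 and -0.51, a rise of 0.52 ± 0.09. CDC45, the third component of the active helicase, had the smallest changes of the role, none beyond 0.17 in size. CDC45 rose by 0.17 ± 0.06 in TRAIL+SN, which turned to -0.30 under spike-in scaling.

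**Figure D2:**
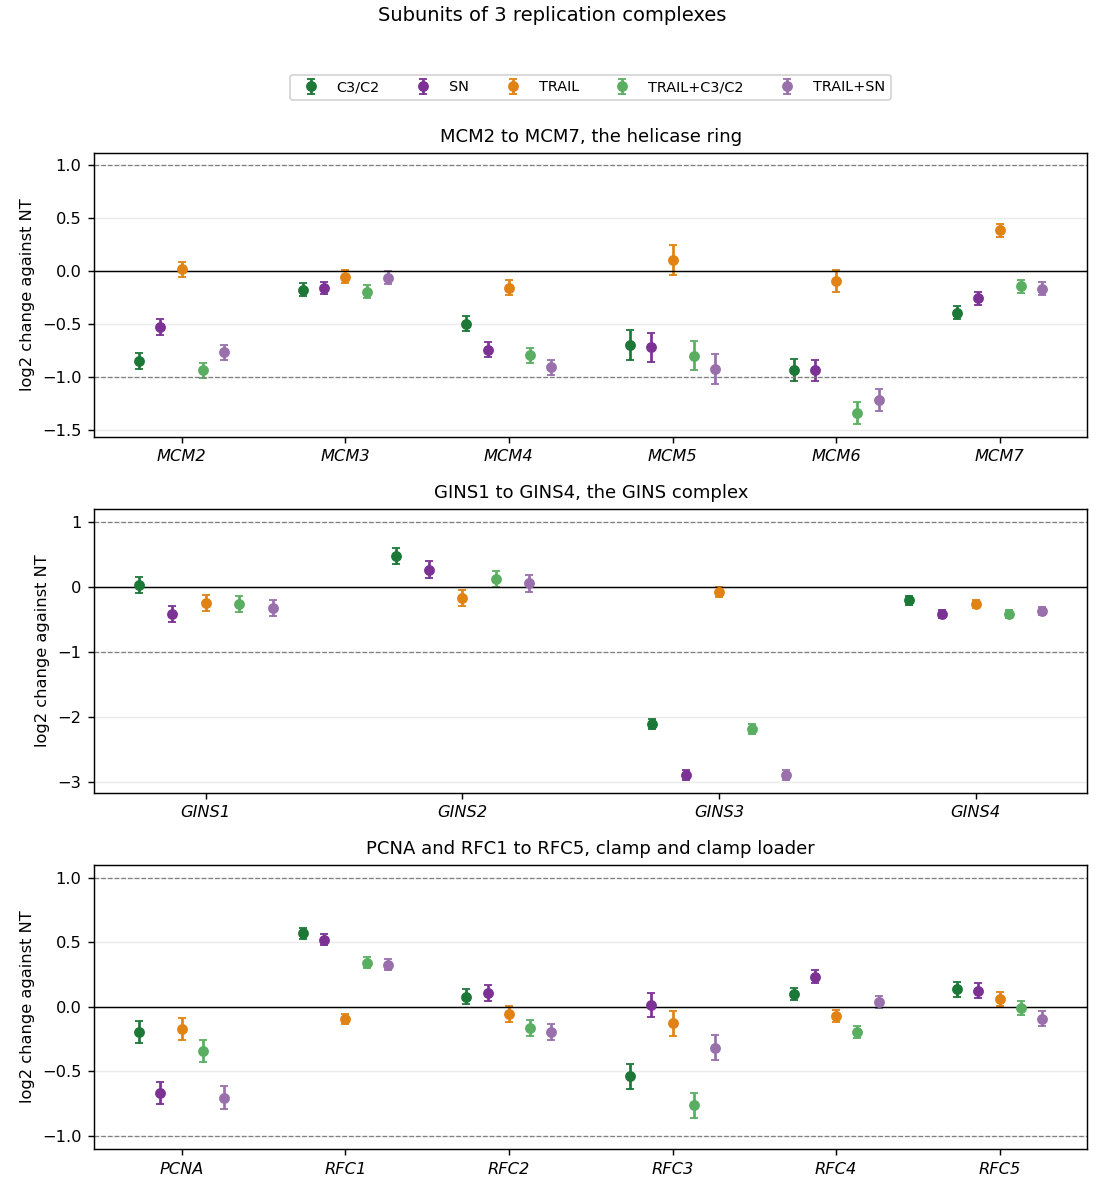
Log2 change against NT with its SE for the subunits of 3 complexes, the MCM ring (top), the GINS complex (middle) and the clamp PCNA with its loader RFC1 to RFC5 (bottom), in 5 treatments by colour, with dashed lines at a fold of 2. The MCM points lie below 0 apart from those of TRAIL, GINS3 stands alone near -2 to -3, and RFC1 is above 0 except with TRAIL, while PCNA is below 0 and RFC3 is near or below it.

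Within the clamp and its loader, the subunits also went separate ways. PCNA, the sliding clamp, was at 4.39, 4.30, 4.64 and 4.42 in NT, 4.12, 4.12, 4.39 and 4.35 with C3/C2, and 3.82, 3.81, 3.76 and 3.70 in SN. The C3/C2 arrays of PCNA overlapped NT and the SN arrays did not. The change was -0.19 ± 0.09 with C3/C2 (adjusted p = 0.0584) and -0.67 ± 0.09 in SN (adjusted p = 6.44e-07). PCNA was at 4.18, 4.24, 4.42 and 4.23 with TRAIL, 3.99, 3.92, 4.25 and 4.23 in TRAIL+C3/C2, and 3.66, 3.79, 3.81 and 3.69 in TRAIL+SN, so that the SN level was seen again with the co-treatment (-0.70 ± 0.09).

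RFC3, by the probe that represents it, showed the reverse order. RFC3, a small subunit of the clamp loader, was at 0.68, 0.55, 0.59 and 0.36 in NT, 0.04, 0.15, 0.00 and -0.16 with C3/C2 and 0.51, 0.75, 0.49 and 0.49 in SN. It fell with C3/C2 (-0.54 ± 0.10, adjusted p = 4.16e-05) and was at 0.01 ± 0.10 in SN. The levels of RFC3 were 0.66, 0.48, 0.39 and 0.14 with TRAIL, -0.13, -0.22, -0.23 and -0.29 in TRAIL+C3/C2 and 0.26, 0.32, 0.13 and 0.21 in TRAIL+SN, and both co-treatments were below all NT arrays (-0.76 ± 0.10 and -0.31 ± 0.10). The other RFC3 probe was at -0.12 with C3/C2 (adjusted p = 0.292) and 0.00 in SN, and fell by 0.22 in TRAIL+C3/C2 and by 0.34 in TRAIL+SN, so the order depends on the probe.

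RFC1, the large subunit, rose with tight replicates. RFC1 was at 1.71, 1.68, 1.76 and 1.69 in NT, 2.24, 2.29, 2.28 and 2.32 with C3/C2 and 2.27, 2.25, 2.20 and 2.21 in SN. The rises were 0.57 ± 0.04 (adjusted p = 9.99e-11) and 0.52 ± 0.04 and passed under all 4 other scalings. RFC1 was at 1.61, 1.57, 1.67 and 1.62 with TRAIL, just below NT at -0.09 ± 0.04 (adjusted p = 0.09). It was at 2.03, 2.12, 2.04 and 2.03 in TRAIL+C3/C2 and 2.00, 2.00, 2.11 and 2.05 in TRAIL+SN, rises of 0.34 ± 0.04 and 0.33 ± 0.04 that became -0.38 and -0.14 under spike-in scaling. RFC2, RFC4 and RFC5 changed by no more than 0.23 in any treatment, with RFC5 the steadiest at -0.09 to 0.14. The rise of RFC5 with C3/C2 (0.14 ± 0.06) turned to -0.16 under the median scaling.

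Among the polymerases and primase, 5 of 7 genes fell with C3/C2, and 6 fell in TRAIL+C3/C2 and in TRAIL+SN. POLE2, the accessory subunit of the leading strand polymerase epsilon, led them. It was at -0.11, -0.09, 0.05 and -0.23 in NT, -0.63, -0.56, -0.77 and -0.60 with C3/C2 and -1.39, -1.41, -1.61 and -1.40 in SN. These 3 groups of POLE2 arrays were fully separate. The fall was 1.46-fold with C3/C2 (-0.54 ± 0.08) and 2.56-fold in SN (-1.36 ± 0.08, adjusted p = 1.75e-12). With TRAIL POLE2 was at -0.28, -0.37, -0.25 and -0.49 (-0.25 ± 0.08, adjusted p = 0.0151). It was at -0.94, -0.99, -1.09 and -0.97 in TRAIL+C3/C2 and -1.47, -1.25, -1.37 and -1.58 in TRAIL+SN, called only in the latter (-1.32 ± 0.08). The probe of POLE2 lies at chr14:50122411-50122470 (hg19, minus strand).

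POLE, the catalytic subunit of the same polymerase, barely moved by comparison. Its representative probe was at 0.26 ± 0.08 (SD, n = 4) in NT and 0.24 ± 0.06 in SN, and fell in TRAIL+SN by 0.23 ± 0.05 (SE). Another POLE probe rose in that same comparison by 0.50 (adjusted p = 0.00062), so the direction of POLE there depends on the probe. Of the 65 changes measured by the 13 other probes of 11 members, this was the 1 that passed in the opposite direction, and 55 had the same sign as the representative probe.

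PRIM1, the catalytic subunit of primase, which makes the RNA primers, was at 1.72, 1.56, 1.57 and 1.47 in NT, 1.24, 1.15, 0.97 and 1.00 with C3/C2 and 0.83, 0.78, 0.68 and 0.67 in SN. PRIM1 fell with both, by 0.49 ± 0.08 and 0.84 ± 0.08. TRAIL arrays, at 1.60, 1.63, 1.51 and 1.40, overlapped NT. In TRAIL+C3/C2 it was at 0.88, 0.87, 0.57 and 0.64, and in TRAIL+SN at 0.47, 0.44, 0.44 and 0.42, the lowest level of any group. The last was a fall of 2.20-fold (-1.14 ± 0.08, adjusted p = 2.76e-11). POLA2, the second subunit of polymerase alpha, was at 1.75, 1.66, 1.51 and 1.57 in NT and at 1.40, 1.40, 1.16 and 1.16 with C3/C2 (-0.35 ± 0.13, adjusted p = 0.0275). In SN POLA2 split into 1.44 and 1.51 for replicates 1 and 2 and 0.98 and 1.01 for replicates 3 and 4, and overlap with NT remained (-0.39 ± 0.13). POLA2 was at 1.91, 1.89, 1.71 and 1.64 with TRAIL, 1.42, 1.33, 1.03 and 1.06 in TRAIL+C3/C2 and 1.26, 1.3, 0.79 and 0.97 in TRAIL+SN. The same step between replicate pairs was visible in each group. PRIM2 and POLA1 fell in all 4 treatments with acids or supernatant, by 0.24 to 0.52. POLD1, of polymerase delta, rose in SN (0.25 ± 0.06) and TRAIL+SN (0.34 ± 0.06, turning to -0.13 under spike-in scaling).

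RPA2 led the genes of single-strand binding and Okazaki fragment processing. RPA1, RPA2 and RPA3 form the trimer that coats single-stranded DNA. RPA2 was at 3.07, 3.03, 3.06 and 3.03 in NT and 3.1, 3.09, 3.1 and 3.00 with TRAIL. With C3/C2 it was at 2.31, 2.30, 2.49 and 2.41, in SN at 2.17, 2.14, 2.18 and 2.10, in TRAIL+C3/C2 at 2.09, 2.00, 2.13 and 2.20 and in TRAIL+SN at 1.76, 1.90, 1.90 and 1.94. All 16 arrays were well below NT. RPA2 fell by 0.67 ± 0.05, 0.90 ± 0.05, 0.94 ± 0.05 and 1.17 ± 0.05, of which the last was called (2.25-fold, adjusted p = 3.82e-14). Both interactions of RPA2 were at -0.30 ± 0.08, so that its level in each co-treatment was lower than the sum of both single changes (adjusted p = 0.0354 for C3/C2 and 0.00709 for SN). The one with C3/C2 did not pass after normexp background correction (-0.25, adjusted p = 0.0707) or in the other RPA2 probe (-0.19, adjusted p = 0.368), where that with SN did (-0.50, adjusted p = 0.00129). The probe of RPA2 lies at chr1:28218305-28218364 (hg19, minus strand).

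RPA3 fell less, from 4.51, 4.43, 4.61 and 4.55 in NT to 4.20, 4.23, 4.49 and 4.26 with C3/C2 and 4.25, 4.08, 4.13 and 4.03 in SN (-0.23 ± 0.07 and -0.40 ± 0.07). RPA3 was at 4.56, 4.59, 4.73 and 4.5 with TRAIL, 4.42, 4.27, 4.29 and 4.26 in TRAIL+C3/C2 and 3.94, 4.02, 3.97 and 4.04 in TRAIL+SN. RPA1 did not fall with C3/C2 (0.11 ± 0.05, adjusted p = 0.0971) and fell by 0.42 ± 0.05 in TRAIL+SN. RPA2 thus fell the most of the trimer in each treatment with acids or supernatant. RPA1 and RPA3 were close in TRAIL+C3/C2, at -0.19 and -0.22. Differences between the subunits were not tested. LIG1, which seals Okazaki fragments, was at 4.02, 4.05, 3.90 and 4.06 in NT, 3.64, 3.57, 3.48 and 3.48 with C3/C2 and 3.63, 3.62, 3.35 and 3.45 in SN, falls of 0.47 ± 0.06 and 0.49 ± 0.06. LIG1 was at 4.07, 4.13, 4.03 and 4.04 with TRAIL, 3.77, 3.71, 3.65 and 3.67 in TRAIL+C3/C2 and 3.65, 3.56, 3.64 and 3.66 in TRAIL+SN. FEN1, the flap nuclease, had the smallest changes of the role, between -0.29 and 0.21, and its rise of 0.21 with C3/C2 turned to -0.09 under the median scaling.

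Of the genes of nucleotide supply, RRM1, RRM2 and TYMS fell and TK1 did not. RRM2, the S-phase subunit of ribonucleotide reductase, was at 1.54, 1.49, 1.97 and 1.63 in NT and 1.35, 1.31, 1.49 and 1.25 with TRAIL. It was at 0.44, 0.59, 0.30 and 0.23 with C3/C2 and 0.76, 0.89, 0.55 and 0.64 in SN. RRM2 was at 0.29, 0.54, 0.56 and 0.57 in TRAIL+C3/C2 and 1.03, 1.04, 0.59 and 0.74 in TRAIL+SN. All arrays of these 4 treatments were below all NT arrays, with the means of the acids below those of the supernatant and some overlap between C3/C2 and SN. The fall was called with C3/C2 (2.41-fold, -1.27 ± 0.12, adjusted p = 4.7e-09) and TRAIL+C3/C2 (2.25-fold, -1.17 ± 0.12), and was 1.93-fold with SN and 1.75-fold in TRAIL+SN. The RRM2 probe lies at chr2:10270487-10270546 (hg19, plus strand).

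TYMS, which makes thymidylate, was at 5.42, 5.37, 5.49 and 5.36 in NT, 4.77, 4.75, 4.76 and 4.71 with C3/C2 and 4.57, 4.54, 4.51 and 4.39 in SN. The 3 groups of TYMS arrays did not overlap, with falls of 0.66 ± 0.06 and 0.91 ± 0.06. TYMS was at 5.35, 5.33, 5.44 and 5.36 with TRAIL, 4.67, 4.59, 4.80 and 4.79 in TRAIL+C3/C2 and 4.39, 4.43, 4.58 and 4.56 in TRAIL+SN. RRM1, the large subunit of the reductase, was at 4.63, 4.67, 4.61 and 4.49 in NT, 4.26, 4.23, 4.09 and 4.06 with C3/C2 and 4.17, 4.23, 3.94 and 3.89 in SN. RRM1 fell by 0.44 ± 0.07 and 0.54 ± 0.07, which is less than RRM2 fell. RRM1 was at 4.53, 4.56, 4.54 and 4.43 with TRAIL, 4.12, 4.01, 4.03 and 4.04 in TRAIL+C3/C2 and 4.03, 4.03, 4.00 and 3.95 in TRAIL+SN. TK1, the salvage kinase of thymidine, was at 7.47 ± 0.05 (SD, n = 4) in NT and 7.83 ± 0.09 with TRAIL (0.36 ± 0.07 SE, adjusted p = 0.00033). It rose with both co-treatments (0.50 ± 0.07 and 0.33 ± 0.07), where spike-in scaling turned it to -0.22 and -0.14, and was at 0.07 ± 0.07 and 0.08 ± 0.07 with C3/C2 and SN.

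The G1/S regulators gave the clearest rises, and members of one family were again unlike. CCNE1, cyclin E1, was at 2.16, 2.08, 2.71 and 2.73 in NT and 2.19, 2.20, 2.85 and 2.63 with TRAIL. In both groups replicates 1 and 2 lay below replicates 3 and 4. CCNE1 was at 3.48, 3.55, 3.66 and 3.64 with C3/C2, 3.70, 3.63, 3.65 and 3.72 in SN, 3.70, 3.56, 3.84 and 3.86 in TRAIL+C3/C2 and 3.66, 3.68, 3.80 and 3.78 in TRAIL+SN. The lowest of these 16 arrays stood above the highest NT array. CCNE1 rose 2.23-fold with C3/C2 (1.16 ± 0.14, adjusted p = 3.64e-07), 2.39-fold in SN, 2.49-fold in TRAIL+C3/C2 and 2.48-fold in TRAIL+SN. Under the median scaling it was below 2-fold with C3/C2 (0.86) and TRAIL+C3/C2 (0.97), and under spike-in scaling with both co-treatments (0.59 and 0.84), with the rise still past the test. The CCNE1 probe lies at chr19:30315106-30315165 (hg19, plus strand). CCNE2, the other E cyclin, fell instead. CCNE2 was at -1.0, -1.02, -0.37 and -0.75 in NT, -1.15, -1.38, -1.21 and -1.29 with C3/C2 and -1.21, -1.2, -1.07 and -1.26 in SN (-0.48 ± 0.15 and -0.40 ± 0.15). CCNE2 was at -1.38, -1.5, -0.76 and -0.89 with TRAIL, -1.73, -1.65, -1.55 and -1.68 in TRAIL+C3/C2 and -1.64, -1.55, -1.27 and -1.58 in TRAIL+SN. Both cyclins bind the same kinase, and by these probes they went in opposite directions in all 4 treatments. A dimmer CCNE2 probe was at 0.00 with C3/C2 and -0.36 in SN (adjusted p = 0.105) and fell by 0.62 and 0.81 in the co-treatments.

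E2F2, an activating E2F factor, separated the acids from the supernatant. It was at 0.69, 0.57, 1.06 and 0.94 in NT, 2.05, 2.00, 2.08 and 2.04 with C3/C2 and 1.21, 1.38, 1.10 and 0.95 in SN. The C3/C2 arrays of E2F2 were all above the SN arrays, which overlapped NT. The rise was 2.34-fold with C3/C2 (1.23 ± 0.13, adjusted p = 2.96e-08) and 1.27-fold in SN (0.34 ± 0.13, adjusted p = 0.021). E2F2 was lower with TRAIL, at 0.16, 0.14, 0.75 and 0.48 (-0.43 ± 0.13, adjusted p = 0.0121). It was at 1.91, 1.92, 1.84 and 1.98 in TRAIL+C3/C2 and 1.31, 1.04, 0.92 and 0.92 in TRAIL+SN, and the former was called (1.10 ± 0.13). Under the median scaling the rises of E2F2 were below 2-fold with C3/C2 (0.93) and TRAIL+C3/C2 (0.75), and under spike-in scaling the latter was 0.37 (adjusted p = 0.0321). E2F1, the best known activator of the family, had the smallest changes of the role, from 1.90 ± 0.08 (SD, n = 4) in NT to 1.99 ± 0.10 with C3/C2 and 1.89 ± 0.04 in SN. None of its 5 changes passed the test. The E2F2 probe lies at chr1:23832933-23832992 (hg19, minus strand).

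Chromatin replication held a pair of partners that parted. CHAF1A and CHAF1B are subunits of CAF-1, which deposits histones behind the fork. CHAF1A was at 2.54, 2.70, 2.62 and 2.67 in NT, 3.63, 3.59, 3.70 and 3.64 with C3/C2 and 3.47, 3.46, 3.27 and 3.15 in SN. It was at 2.49, 2.55, 2.53 and 2.56 with TRAIL, 3.48, 3.36, 3.27 and 3.29 in TRAIL+C3/C2 and 3.38, 3.27, 3.21 and 3.00 in TRAIL+SN. All 16 arrays with acids or supernatant were above NT. CHAF1A rose by 1.00 ± 0.08 with C3/C2 (2.00-fold, adjusted p = 2.53e-10) and by 0.70 ± 0.08 in SN. The fold stood at the threshold, and the call was lost in 8 of 21 alternative settings. The rises in TRAIL+C3/C2 (0.72 ± 0.08) and TRAIL+SN (0.58 ± 0.08) went to -0.01 and 0.11 under spike-in scaling. The other CHAF1A probe rose by 0.70 with C3/C2 and 0.83 in SN, both below a fold of 2. The call and the order of these treatments thus depend on the probe.

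CHAF1B fell in those treatments. CHAF1B was at 2.08, 2.04, 2.17 and 2.06 in NT, 1.46, 1.33, 1.44 and 1.41 with C3/C2 and 2.00, 2.00, 1.95 and 1.87 in SN. The fall was -0.68 ± 0.05 with C3/C2 (adjusted p = 5.57e-11) and only -0.13 ± 0.05 in SN. CHAF1B was at 2.06, 2.13, 2.24 and 2.13 with TRAIL, 1.28, 1.26, 1.24 and 1.25 in TRAIL+C3/C2 and 1.71, 1.69, 1.73 and 1.75 in TRAIL+SN, the tightest groups of this gene. UHRF1, which brings DNA methylation to new strands, fell more in SN than with C3/C2. UHRF1 was at 1.81, 1.83, 2.01 and 1.84 in NT, 1.29, 1.35, 1.68 and 1.55 with C3/C2, 0.88, 0.85, 0.99 and 0.89 with SN and 1.45, 1.2, 1.62 and 1.53 with TRAIL. These were falls of 0.41 ± 0.11, 0.97 ± 0.11 and 0.42 ± 0.11. The other UHRF1 probe fell by 0.35 and 0.57 in the first pair of these but was at 0.08 with TRAIL (adjusted p = 0.543). In the co-treatments UHRF1 was at 1.05, 1.00, 1.32 and 1.32 in TRAIL+C3/C2 and 0.95, 0.76, 1.14 and 1.09 in TRAIL+SN. The fall was 0.70 in TRAIL+C3/C2, where the other probe was at -0.05 (adjusted p = 0.639), and 0.89 in TRAIL+SN, where it fell by 0.47.

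**Figure D3:**
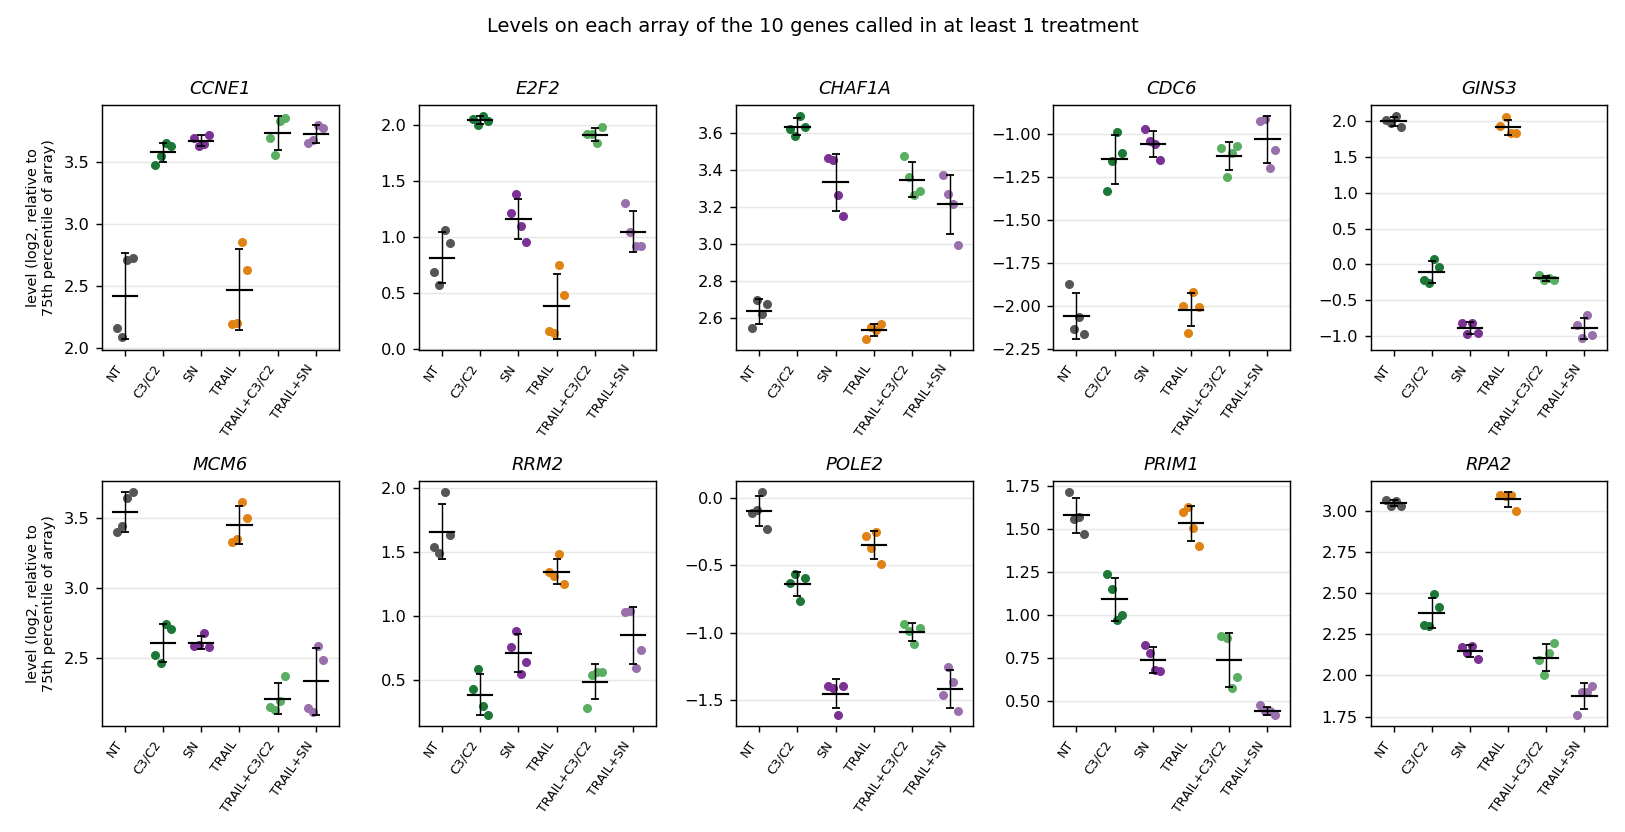
Level of each of the 10 genes called in at least 1 treatment, on each of the 24 arrays (points) with the mean and SD of each of the 6 groups (bars), on the log2 scale with the 75th percentile of each array at 0. CCNE1, CHAF1A and CDC6 stand above NT and TRAIL in the 4 treatments with acids or supernatant, E2F2 does so fully only with C3/C2 and TRAIL+C3/C2, and the other 6 genes stand below.

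SN against C3/C2 asked whether the supernatant did more than its acids, which were used in the amounts of the diluted supernatant. No member reached a fold of 2 in that comparison (0 higher and 0 lower, against 1.28% and 4.42% of all genes), whereas 7 were higher and 15 lower in SN at any fold, beside 21.7% and 25.7% of all genes. SN and C3/C2 lay on different slides. The pair TRAIL+SN and TRAIL+C3/C2, on 1 slide and with no array in common with the former pair, also had 0 members past a fold of 2 (0.976% higher and 2.56% lower over all genes), with 7 higher and 11 lower at any fold (15.9% and 21.7%). Over the 43 genes the differences in both pairs had the same sign for 34, with a Pearson r of 0.893 and a Spearman rho of 0.867 across genes, which are not independent replicates. In both pairs 16 genes passed the test, and all 16 had the same sign. Such agreement was not counted over all genes, so it does not set the members apart.

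E2F2 was lower in SN than with C3/C2 by 0.88 without TRAIL and by 0.87 with it (SE 0.13). POLE2 was lower by 0.81 and 0.42, GINS3 by 0.78 and 0.70, PCNA by 0.47 and 0.36, PRIM1 by 0.35 and 0.30 and FEN1 by 0.33 and 0.37. RPA1, RPA2, RPA3 and TYMS completed the 10 lower genes, of which by their other probes RPA1 (-0.22, adjusted p = 0.0854) and RPA2 (-0.09, adjusted p = 0.296) did not pass without TRAIL. The 6 of these 16 genes that were higher in SN were CHAF1B (0.54 and 0.46), RFC3 (0.55 and 0.45), RRM2 (0.32 and 0.36), CDC45 (0.22 and 0.26), POLD1 (0.17 and 0.31) and RFC4 (0.13 and 0.23). The difference of RFC3 rests on 1 probe, as the other was at 0.12 (adjusted p = 0.335) and -0.12 (adjusted p = 0.351). In the remaining genes a difference that misses the test does not show that both treatments act alike. The balance moved with the scale: under the median scaling 11 were higher and 5 lower for SN against C3/C2 and 11 and 3 for the co-treatments, and under spike-in scaling 8 and 5, and 12 and 2. In the comparison of SN with C3/C2, E2F2, GINS3, PCNA, POLE2, UHRF1, CDC45, CHAF1B, MCM2, RFC3 and RRM2 passed with the same sign under all 4 other scalings. The other UHRF1 probe did not pass there (-0.22, adjusted p = 0.0583).

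**Figure D4:**
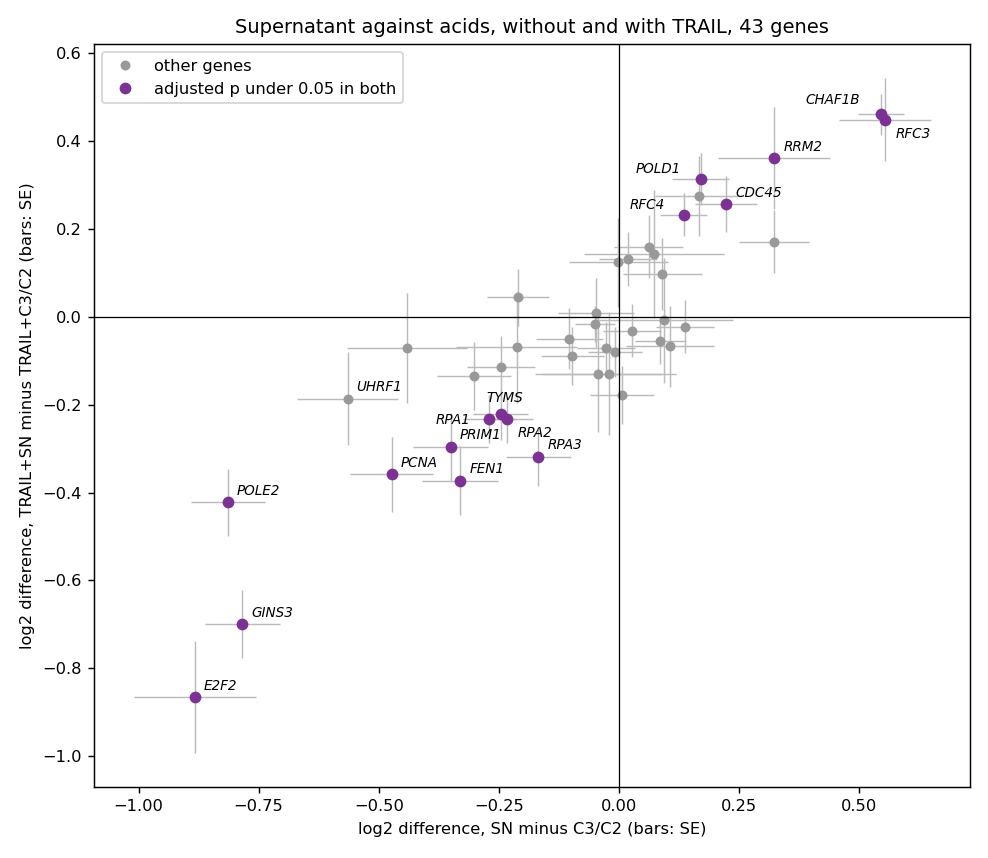
Log2 difference between supernatant and acids for each of the 43 genes, SN minus C3/C2 on the x axis and TRAIL+SN minus TRAIL+C3/C2 on the y axis, with SE bars and in purple the 16 genes with an adjusted p under 0.05 in both. E2F2, GINS3 and POLE2 lie at the lower left and CHAF1B and RFC3 at the upper right, and no purple gene lies in a quadrant of unlike signs.

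SN against TRAIL, both on slide 3, were compared within 1 slide. It had 1 member called higher and 2 lower (13.1% and 8% of all genes), namely CCNE1 at 1.21 ± 0.14, GINS3 at -2.81 ± 0.08 and POLE2 at -1.10 ± 0.08. At any fold 11 members were higher and 21 lower, where all genes had 32.5% and 33.9%. This was 7 and 28 under the median scaling and 15 and 9 under spike-in scaling. The members' differences were set against those of C3/C2 from NT, which lie on slides 1 and 2 and share no array with them. They had the same sign for 36 of 43 genes, with a Pearson r of 0.904 and a Spearman rho of 0.864 across genes, and all 27 genes past the test in both had the same sign, 8 higher and 19 lower. This agreement too was not counted over all genes and does not set the members apart.

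TRAIL changed the replication genes little, and its combination with acids or supernatant departed little from the sum of the single changes. The interaction of TRAIL with C3/C2 had 0 members past a fold of 2 (0.493% above and 0.164% below the sum over all genes) and at any fold 0 above and 1 below, RPA2, beside 1.74% and 1.14% of all genes. The interaction of TRAIL with SN had 0 past a fold of 2 (2.76% and 0.333% of all genes) and at any fold 2 above and 5 below, where all genes had 11% and 12.2%. UHRF1 (0.51 ± 0.15, adjusted p = 0.0175) and GINS4 (0.31 ± 0.09, adjusted p = 0.0192) were above the sum of the single changes, but the other UHRF1 probe was at 0.02 (adjusted p = 0.938). CHAF1B (-0.28 ± 0.07), RPA2 (-0.30 ± 0.08), MCM7 (-0.30 ± 0.09), RFC5 (-0.28 ± 0.08) and RFC2 (-0.25 ± 0.09) were below it, with the other MCM7 probe at -0.25 (adjusted p = 0.26). Under the median and spike-in scalings 0 were above the sum in the interaction with SN, and 11 and 9 were below it. In that with C3/C2, 0 were above the sum, and 2 and 9 were below it. The member medians of the interactions were -0.066 with C3/C2 and -0.019 with SN. Spike-in scaling moved them to -0.431 and -0.303, where the medians of all genes were -0.36 and -0.293. Both interactions join all 4 slides, so slide and treatment cannot be told apart in them.

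Around the 43 genes, 62 of 64 other genes of replication and S-phase entry were tested. They rose and fell in 11 and 34 cases with C3/C2, 13 and 35 in SN, 9 and 11 with TRAIL, 15 and 40 in TRAIL+C3/C2 and 14 and 40 in TRAIL+SN, where the shares of all genes were 35.2% and 27.7%, 35.1% and 34.2%, 20.3% and 13.1%, 39.9% and 29.5%, and 37.4% and 32.7%. Past a fold of 2 these were 2 and 5, 2 and 6, 1 and 1, 4 and 8, and 4 and 9, beside 13.4% and 6.17%, 14.2% and 9.74%, 0.749% and 2.18%, 16.3% and 7.93%, and 16.1% and 10.1% of all genes. The same shares at any fold apply to the smaller lists. Of 11 genes of the RB and E2F group, 0 rose and 7 fell with C3/C2 and 1 rose and 9 fell in SN. Of 13 genes of origin recognition and firing, 4 rose and 6 fell with C3/C2, and 3 rose and 5 fell in SN. Among 22 mitosis genes, 0 rose and 14 fell with C3/C2, 0 and 21 in SN, 2 and 0 with TRAIL, 1 and 12 in TRAIL+C3/C2, and 0 and 20 in TRAIL+SN.

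CDKN1A and CDKN1C, inhibitors of cyclin-dependent kinases, rose more than any member in each treatment with acids or supernatant. CDKN1A (p21), which binds cyclin E with CDK2 and also PCNA, was at -4.09, -4.31, -3.83 and -4.22 in NT. CDKN1A was at -1.47, -1.48, -1.36 and -1.42 with C3/C2, 0.33, 0.27, 0.02 and 0.03 with SN and -2.92, -2.69, -2.88 and -2.72 with TRAIL. The groups of CDKN1A arrays were fully separate, at 6.4-fold, 19.4-fold and 2.48-fold above NT. It was at -0.19, -0.23, -0.18 and -0.03 in TRAIL+C3/C2 and 0.73, 0.75, 0.12 and 0.51 in TRAIL+SN, or 15.5-fold and 24.9-fold. CDKN1C (p57) was at 0.91, 1.01, 1.68 and 1.77 in NT and 4.15, 4.21, 4.51 and 4.48 with C3/C2, a rise of 2.99 ± 0.17. CDKN1C was at 3.91, 3.81, 3.93 and 3.75 in SN (2.51 ± 0.17) and at 1.22, 1.42, 2.00 and 1.90 with TRAIL, within or near NT. It was highest in TRAIL+C3/C2, at 5.15, 5.14, 5.29 and 5.22, and was at 3.91, 3.98, 3.92 and 3.88 in TRAIL+SN.

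The other genes of this list that were called in 3 or more treatments fell. CDC7, the kinase that fires origins by phosphorylating the MCM ring, was at 0.72 ± 0.08 (SD, n = 4) in NT, -0.88 ± 0.08 with C3/C2, -1.08 ± 0.07 in SN, 0.56 ± 0.04 with TRAIL and -1.14 in both co-treatments. CDC7 was lower by 3.05-fold, 3.50-fold and 3.64-fold with C3/C2, SN and TRAIL+C3/C2. CCNA2, the cyclin of S phase and G2, was at 2.12 ± 0.20 in NT, 0.95 ± 0.15 with C3/C2 and 0.66 ± 0.20 in SN, falls of 1.17 ± 0.11 and 1.46 ± 0.11 (SE). RNASEH2B, of the enzyme that removes ribonucleotides from DNA, fell by 1.26 ± 0.08 and 1.10 ± 0.08. CDCA7 fell by 1.28 ± 0.08 with C3/C2 and 0.75 ± 0.08 in SN, and 1.64 ± 0.08 in TRAIL+C3/C2. DCK, the salvage kinase of deoxycytidine, was the one of these also called lower with TRAIL. DCK was at -1.83 ± 0.18 in NT, -3.70 ± 0.06 in SN, -3.34 ± 0.23 with TRAIL and -4.13 ± 0.17 in TRAIL+SN, so that its interaction of TRAIL with SN was called at 1.08 ± 0.17 (adjusted p = 0.000179). The level of DCK in TRAIL+SN is as low as that of CDKN1A in NT. The part of intensity near background in this interaction was not tested.

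**Figure D5:**
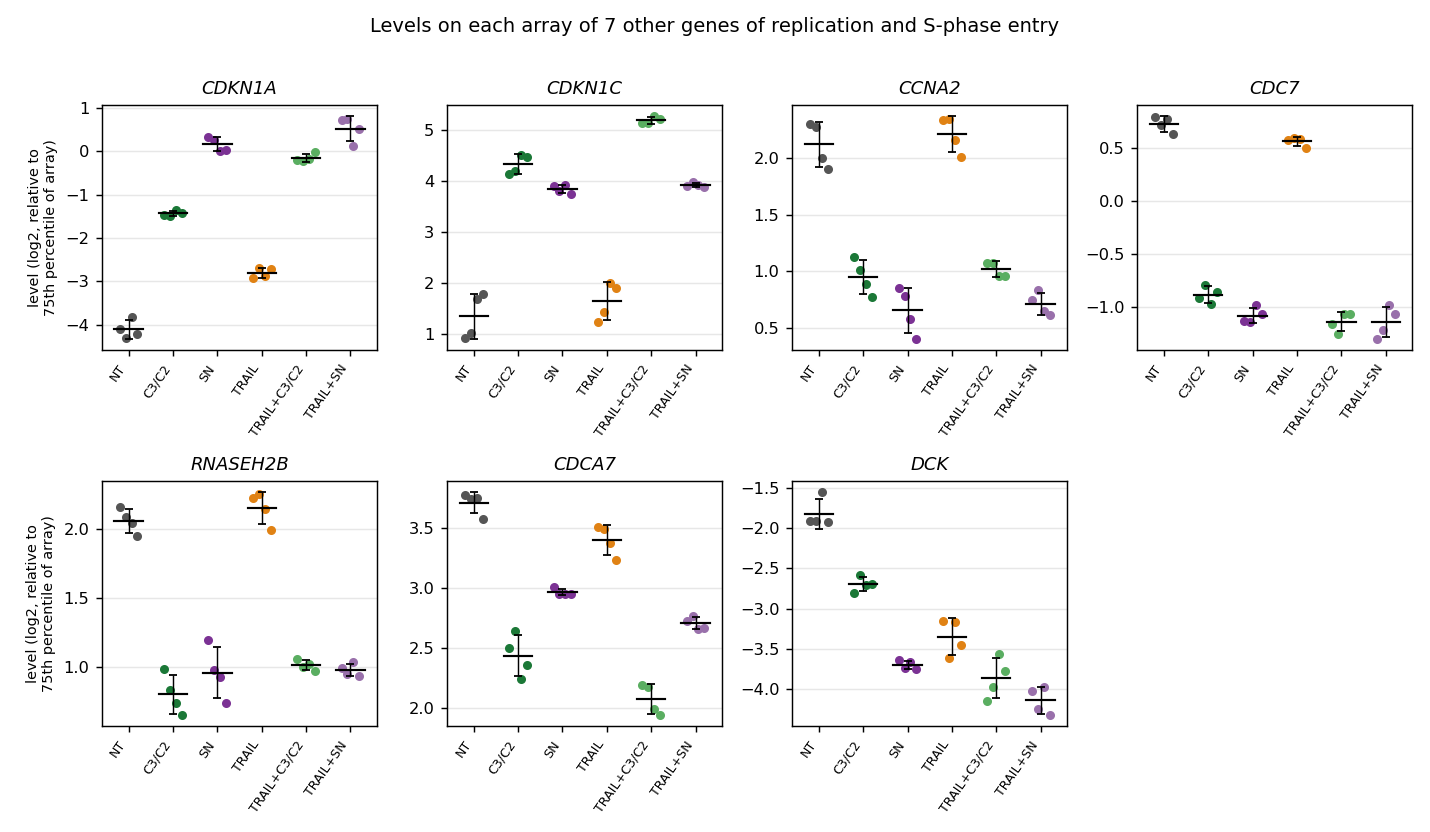
Level of 7 other genes of replication and S-phase entry on each of the 24 arrays (points), with the mean and SD of each of the 6 groups (bars), on the log2 scale with the 75th percentile of each array at 0. CDKN1A and CDKN1C stand above NT with acids or supernatant, CCNA2, CDC7, RNASEH2B and CDCA7 stand below NT there and closer to it with TRAIL, and DCK is below NT in all 5 treatments.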

How the data were processed

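RNA of HT29 cells was hybridised to 24 one-colour (Cy3) Agilent arrays. The deposited spot intensity values were made by the authors with Agilent Feature Extraction 10.7.3.1 (per the file headers), which subtracted background and detrended each array without scaling between arrays; probe positions are on hg19. The authors also deposited the ratio of each intensity to the median of its array, which was not tested, and 24 flag columns beside those values were not used.

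For the present values, log2 processed intensity was taken minus the 75th percentile of each array, which forces the arrays to one level, so that a change common to most genes would not be seen. A probe was kept where some group had it well above background on each of its 4 arrays (27953 of 50599), control and outlier spots were left out, and a gene was represented by its probe of highest mean level, giving 20700 genes. A single limma 3.58.1 (R 4.3.3) fit of 6 group means gave 10 comparisons, with Benjamini-Hochberg adjustment over all 20700 genes. Calls required a fold of 2 and an adjusted p under 0.05. The number of arrays limits the precision. The fit was tested on simulated data.

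The members and lists were chosen with earlier results of these data known. In each role, values of all arrays are given for up to 3 members, those called in most treatments with ties broken by the largest change, and the member of smallest change is also named. Members with probes that disagree or with an interaction are named too, as are up to 3 genes per list of the pathway called in at least 3 treatments. Alternatives were array median, quantile and spike-in scaling (10 E1A probes), normexp background with an offset of 50, other filters on dim probes, the mean of all probes, outlier spots kept, slide or replicate number as a block, trend and robust estimates, a fold of 1.5 or none, and each array left out. Tables and plots used Python 3.11.15, numpy 2.4.6, pandas 2.3.3, matplotlib 3.10.9 and data.table (version 1.17.8).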

Additional observations from a re-analysis of the deposited data

Results flagged for a closer look

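Among 258 sets of 4 arrays (43 genes in 6 groups), 12 held an array far from the other 3 by Dixon's criterion, where chance would flag about 12.9. These were GINS4 in C3/C2 replicate 2 (level 0.38), MCM2 in TRAIL+SN replicate 4 (3.85), MCM6 in SN replicate 3 (2.68), POLD1 in NT replicate 3 (3.31) and in TRAIL+C3/C2 replicate 2 (3.39), and POLE2 in SN replicate 3 (-1.61). The others were RFC1 in TRAIL+C3/C2 replicate 2 (2.12), RFC3 in SN replicate 2 (0.75), RPA2 in TRAIL replicate 4 (3.0), RRM1 in TRAIL replicate 4 (4.43), RRM2 in TRAIL+C3/C2 replicate 1 (0.29) and UHRF1 in NT replicate 3 (2.01).

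The effect of SN differed with and without TRAIL, by the interaction term of the limma fit, for 7 members. The log2 interaction was -0.28 for CHAF1B (adjusted p = 0.00423), 0.51 for UHRF1 (0.0175), -0.25 for RFC2 (0.0401), -0.28 for RFC5 (0.0141), 0.31 for GINS4 (0.0192), -0.3 for MCM7 (0.0143) and -0.3 for RPA2 (0.00709). For C3/C2 it was -0.3 for RPA2 (0.0354). The other probes of UHRF1 (0.02, adjusted p = 0.938) and MCM7 (-0.25, adjusted p = 0.26) did not pass, and that of RPA2 passed for SN (-0.5, 0.00129) but not for C3/C2 (-0.19, 0.368).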

How the results depend on the processing

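The number of members past a fold of 2 depended mainly on the scaling and on the fold required. Shares of all genes under the other scalings and at a fold of 1.5 were not counted. With array median scaling it was 8 in SN, 14 for TRAIL+C3/C2 and 7 for SN against TRAIL, with quantile normalization 5 for SN and 8 for TRAIL+C3/C2, and with spike-in scaling 21 for TRAIL+C3/C2, 15 for TRAIL+SN and 6 for SN against TRAIL. At a fold of 1.5 the count was 12 in C3/C2, 14 in SN, 18 for TRAIL+C3/C2, 16 for TRAIL+SN, 3 for SN against C3/C2, 16 for SN against TRAIL and 2 for TRAIL+SN against TRAIL+C3/C2. With no minimum fold these were 33, 35, 36, 37, 22, 32 and 18, with 8 for TRAIL, 1 for the interaction of TRAIL with C3/C2 and 7 for that with SN. Leaving out 1 array at a time gave 4 to 5 for C3/C2, 3 to 4 for SN, 5 for TRAIL+C3/C2, 6 to 8 for TRAIL+SN, 3 for SN against TRAIL and 0 for the other comparisons. Of 405 values of called members under the alternatives, 382 kept direction and call, 23 kept direction and lost the call, and 0 turned. Some alternatives, such as the filters on dim probes and the trend and robust estimates, cannot turn a member's direction. The count of kept directions therefore overstates what was tried. The lost calls were those of CCNE1, CDC6, CHAF1A and E2F2. CHAF1A with C3/C2 was at 0.976 within slide 2 and 0.973 without NT replicate 1. The replicate numbers are not stated to pair the arrays. Deviations of same-numbered arrays correlated at 0.062 to 0.475 over 60 pairs, and 23 of 24 arrays correlated best with their own number. With replicate number as a block the calls were 5, 3, 0, 5 and 7 for the 5 treatments, the same counts as without it. At any fold, 3 rose and 11 fell with TRAIL under the block (2 and 6 without it), and in the interactions 0 were above and 5 below the sum for C3/C2 (0 and 1 without it) and 5 above and 10 below for SN (2 and 5). GINS2 then passed in SN (0.26, adjusted p = 0.00183) and with TRAIL (-0.18, adjusted p = 0.0417). Shares of all genes under the block or with an array left out were not counted, so these counts do not set the members apart. The cause of the shifts under the block was not tested. Intensity near background limits low genes such as CDKN1A in NT, and may limit DCK in TRAIL+SN.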
